A study of Mus musculus with 45 samples.

Results

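A group of 9 genes from protease inhibitor families was followed across cell lines from a mouse mammary tumour model. The 9 were Slpi, Timp1, Timp2, Timp3, Serpine2, Serpinb5, Cst3, Spint1 and Spint2. They were listed because Slpi and Timp1 ran lower in lines grown out of the lung than in lines grown out of fat-pad tumours, so that contrast was used in choosing them and is described without a test. The group is 9 of the 54838 genes in the deposited count table, and all 9 passed the filter on low counts in every comparison. Most of them encode proteins that are secreted or anchored in the cell membrane. Serpinb5 instead belongs to the clade B serpins, which lack a classical secretion signal and are found largely inside cells. It is counted among the inhibitors by family, and no inhibition of a protease by it is implied or was measured.

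RNA was measured by poly(A) RNA sequencing in 15 lines, each as 3 technical repeats, so 45 libraries in all. Every line descended from 1 of 2 parental PyMT+ lines, YEJG and YEJH, in which the polyomavirus middle T antigen is driven by the MMTV promoter in mammary epithelium of FVB/N mice. From YEJG there were 1 parental line, 1 fat-pad tumour line (YEJG-FP) and 2 lung lines (YEJG-M1 and YEJG-M2). From YEJH there were 1 parental line, 5 fat-pad tumour lines (YEJH-FP1 to YEJH-FP5) and 5 lung lines (YEJH-M1 to YEJH-M5). All were cultured lines without further treatment, and the ages of the donor mice are not given in the sources used here. The technical repeats of a line are not independent samples, so lines were the unit of comparison, and each site within YEJG rests on 1 or 2 lines. A level measured in a culture is a mean over its cells, and fewer cells that express a gene cannot be told apart from less RNA per cell.

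Extracellular proteolysis is held in check by inhibitors that bind proteases one to one. The tissue inhibitors of metalloproteinases (TIMPs) block matrix metalloproteinases and some ADAM proteases. Inhibitory serpins trap serine proteases in an irreversible complex, and cystatins block lysosomal cysteine proteases. Kunitz inhibitors such as Spint1 and Spint2 restrain matriptase and related proteases at the surface of epithelial cells. In mammary carcinoma, the balance between proteases and these inhibitors helps to set how matrix and growth factor precursors are cleaved.

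Libraries held between 9723860 and 16943900 reads on genes, and each line held between 38265130 and 45958820 over its repeats. Levels are given as normalised read counts, scaled to the mean library with TMM factors, and a line's value is the mean of its 3 repeats. YEJH-M3 repeat 2 stood apart from the other repeats of its line, so results that rest on it are given with and without it. YEJH-M3 is labelled as taken from lung metastases and the other lung lines as taken from whole lung. The prefix of the library name divided the libraries into sets, called library runs A and B here, though the labels do not say what it stands for. Between these sets the 9 genes differed by -0.01 to 0.05 on the log2 scale. Of 6 lung epithelial markers, the surfactant genes Sftpc, Sftpb and Sftpa1 were at 0 in every library, Scgb1a1 reached at most 0.337 normalised counts in any line, Ager ran from 1.55 to 6.10 and Foxj1 from 22.04 to 752, and the list summed to between 24.5 and 758. The summed adipocyte markers reached at most 0.337 normalised counts in any line, whereas the 6 luminal epithelial markers summed to between 39540 and 105168.

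Slpi (ENSMUSG00000017002), a secreted inhibitor of neutrophil elastase and cathepsin G, was the member with the clearest division by site, as its selection required. In YEJH its level was 2573, 2758, 2159, 2518 and 2509 normalised counts in fat-pad lines FP1 to FP5. In the YEJH lung lines it was 1888, 1582, 1498, 1929 and 1585 in M1 to M5. The highest lung line lay below the lowest fat-pad line. In YEJG the fat-pad line stood at 2942 and the lung lines at 1213 and 1369, so no lung line of either origin overlapped a fat-pad line. The share of all genes that separate by site in this way was not counted. Over all derived lines Slpi averaged 2577 ± 264 (SD, n = 6) in fat-pad lines and 1581 ± 259 (SD, n = 7) in lung lines, a log2 difference of -0.71 (SE 0.10). The difference was -1.18 within YEJG and -0.57 within YEJH.

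The parental lines placed Slpi differently. It was 1207 ± 61.0 (SD over 3 technical repeats) in YEJG, beside that origin's lung lines, and 2306 ± 502 (SD over 3 technical repeats) in YEJH, within the range of that origin's fat-pad lines. The YEJG fat-pad line thus held 2.44 times the Slpi of its parent. The 250 bases upstream of the Slpi start are shown because Slpi defines the site pattern, with the matches to searched motifs in capitals (RefSeq annotation of GRCm38.p6, minus strand, chr2:164356508-164356757, given 5′ to 3′).
Slpi: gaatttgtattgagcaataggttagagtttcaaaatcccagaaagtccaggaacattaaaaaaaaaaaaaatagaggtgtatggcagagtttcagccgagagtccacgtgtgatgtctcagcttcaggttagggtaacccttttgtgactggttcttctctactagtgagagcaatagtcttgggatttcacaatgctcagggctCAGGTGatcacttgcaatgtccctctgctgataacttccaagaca
The motifs searched on both strands of all 32851 promoters in the table were the AP-1 motif TGANTCA, the E-box CACCTG, the GC box GGGCGG and the TATA motif TATAAA, with CAGGTG and CCGCCC marking reverse matches. They were found in 6.75%, 17.2%, 32.7% and 12.4% of those windows. The Slpi window held 1 CACCTG match, 45 bases before the start, and no match to the other motifs.

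Timp1 (ENSMUSG00000001131), which inhibits most matrix metalloproteinases, was the other gene on which the list was chosen, and its division by site was smaller. The YEJH fat-pad lines FP1 to FP5 held 3181, 3335, 3314, 2985 and 3367 normalised counts. The YEJH lung lines M1 to M5 held 3027, 2329, 2464, 2751 and 2305. YEJH-M1 lay above YEJH-FP4, so the groups overlapped by 1 line. In YEJG the values were 4365 in the parental line, 3713 in the fat-pad line, and 2780 and 2882 in the lung lines. Over all derived lines the means were 3316 ± 240 (SD, n = 6) and 2648 ± 283 (SD, n = 7), a log2 difference of -0.33 (SE 0.07), with -0.37 within YEJG and -0.34 within YEJH. The upstream window of Timp1 (GRCm38.p6, plus strand, chrX:20869916-20870165) held 1 GC box, 8 bases before the start, shown in capitals as its reverse complement.
Timp1: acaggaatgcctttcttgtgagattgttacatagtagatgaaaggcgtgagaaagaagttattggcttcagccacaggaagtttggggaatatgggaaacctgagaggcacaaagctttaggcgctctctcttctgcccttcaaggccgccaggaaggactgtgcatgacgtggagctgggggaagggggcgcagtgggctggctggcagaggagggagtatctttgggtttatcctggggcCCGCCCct

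Timp3, a matrix-bound inhibitor of metalloproteinases and ADAM proteases, had the next largest difference by site for its error. Its values were 7667, 8054, 6429, 6729 and 7775 normalised counts in YEJH fat-pad lines FP1 to FP5 and 7141, 4981, 5255, 6867 and 4993 in YEJH lung lines M1 to M5. The YEJG lines held 8240 (parental), 11685 (fat pad), 5809 (YEJG-M1) and 6577 (YEJG-M2). The log2 difference between lung and fat-pad lines was -0.45 (SE 0.14), -0.90 within YEJG and -0.34 within YEJH, with overlap of the groups.

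For the other members the difference by site was smaller relative to its error or turned on origin. Serpine2 (protease nexin-1, an inhibitor of thrombin and plasminogen activators) differed by -0.42 (SE 0.29), but by 0.53 within YEJG and -0.84 within YEJH. Serpinb5 differed by -0.36 (SE 0.34), Spint2 by -0.26 (SE 0.32) and Spint1 by -0.24 (SE 0.36). Within YEJH the same 3 differed by -0.08, 0.01 and 0.01. Within YEJG, by contrast, the fat-pad line held 3.21, 2.70 and 2.48 times the mean of the lung lines for these 3. Cst3 (cystatin C) differed by 0.17 (SE 0.14) and Timp2, which inhibits metalloproteinases and takes part in activating proMMP2, by 0.02 (SE 0.07). By sign, 7 of the 9 members were lower in lung lines. Across the whole table, edgeR's quasi-likelihood test passed 0 of 15056 genes at an adjusted p under 0.05 in this contrast and 784 at an unadjusted p under 0.05, DESeq2 passed 21, and edgeR with origin as a covariate passed 3. Since the members were chosen on this contrast, their signs are not evidence of its direction.

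**Figure D1:**
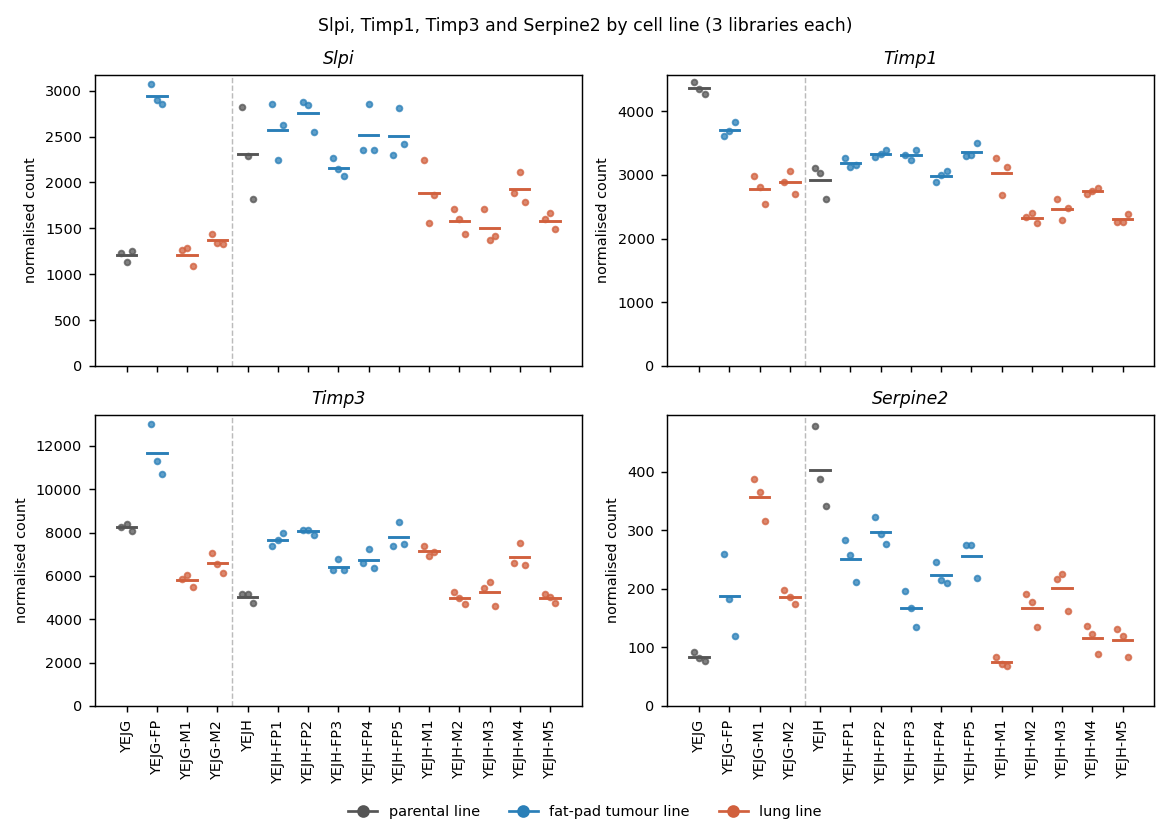
Normalised read counts (y axis, linear from 0) of Slpi, Timp1, Timp3 and Serpine2 in the 15 lines (x axis). Points are the 3 technical repeats and bars their mean, coloured by site, with YEJG lines left of the dashed line. Slpi lung lines lie between 1213 and 1929 and its fat-pad lines between 2159 and 2942, whereas Serpine2 spans 74.6 to 402 with overlap of the sites.

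The comparison of YEJG-derived with YEJH-derived lines asked whether the inhibitors carried a mark of parental origin, which the choice of members did not use. Of the 9 members, 5 passed the quasi-likelihood test of edgeR, adjusted over all genes tested by the Benjamini-Hochberg method, against a background of 42.3% of 15056 genes. Of these, 1 was higher in YEJG-derived lines (background 20.9%) and 4 were lower (background 21.4%). The share of members that passed was not far from that of genes in general. Each origin descends from a single parental line, so p measures the spread among lines of these 2 parents. Within library run A alone 6 members passed, where 5105 genes did in all, and within run B alone 4 did, where 5474 genes did. With both runs together 6367 genes passed, and fewer genes were tested in each single run. Timp2 was lost in run B, with an adjusted p of 0.0615 in edgeR's quasi-likelihood test.

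The 3 largest differences belonged to the 3 members tied to epithelial cells. Serpinb5 (maspin, ENSMUSG00000067006), a clade B serpin made by mammary epithelium, was at 578 and 653 normalised counts in the YEJG lung lines and at 2706, 2486, 2472, 2782 and 2348 in the 5 YEJH lung lines. The YEJG fat-pad line held 1973, below the YEJH fat-pad lines at 2637, 2526, 2736, 2732 and 2800. The parental lines did not share the gap, with 3037 in YEJG and 2809 in YEJH. Every YEJG-derived line lay below every YEJH-derived line. The log2 difference adjusted for site was -1.35 (SE 0.25, adjusted p = 0.000864, edgeR). The share of all genes whose derived lines separate by origin was not counted, here or for the members below.

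Spint1 (HAI-1, ENSMUSG00000027315), a transmembrane Kunitz inhibitor of matriptase and of hepatocyte growth factor activator, followed the same order. It was at 196.5 and 372 normalised counts in YEJG-M1 and YEJG-M2, against 1284, 908, 1286, 1081 and 1261 in the YEJH lung lines. The YEJG fat-pad line held 705 and the YEJH fat-pad lines 1229, 1181, 1210, 1069 and 1036. The parental lines stood at 1221 (YEJG) and 1383 (YEJH). The derived lines of each origin did not overlap, and the log2 difference was -1.46 (SE 0.26, adjusted p = 0.000659, edgeR).

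Spint2 (HAI-2, ENSMUSG00000074227), the other Kunitz inhibitor of the pair, was at 632 and 997 normalised counts in the YEJG lung lines and at 3247, 2933, 3001, 2903 and 2869 in the YEJH lung lines. The YEJG fat-pad line held 2201 and the YEJH fat-pad lines 2999, 3054, 3063, 2816 and 2739, while the parental lines held 3078 (YEJG) and 4198 (YEJH). The derived lines again did not overlap by origin, with a log2 difference of -1.24 (SE 0.24, adjusted p = 0.00118, edgeR). Among lung lines, the mean of the YEJH lines was 4.16 times that of the YEJG lines for Serpinb5, 4.09 times for Spint1 and 3.67 times for Spint2. In a fit of the lung lines alone the log2 differences were -2.06, -2.04 and -1.88, with adjusted p of 4.03e-05, 0.000934 and 0.000215 in edgeR, where 36.4% of genes passed.

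**Figure D2:**
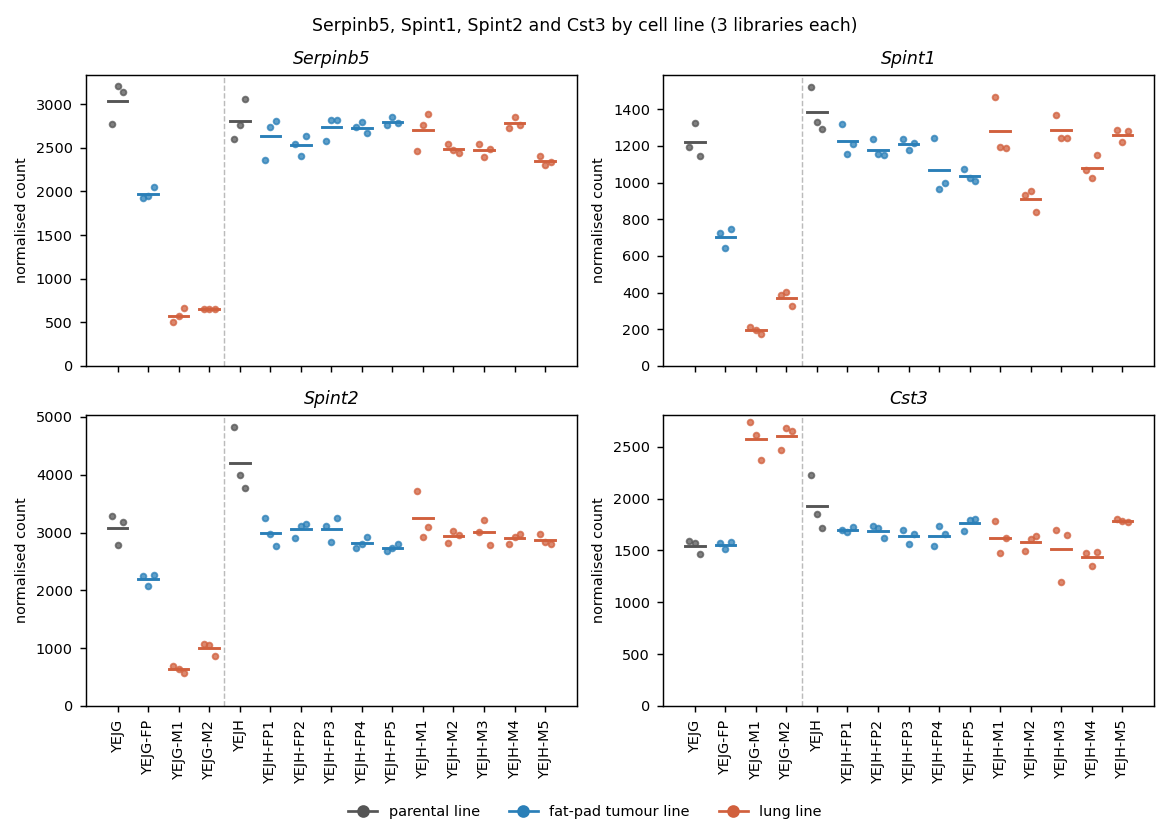
Normalised read counts (y axis, linear from 0) of Serpinb5, Spint1, Spint2 and Cst3 in the 15 lines (x axis). Points are the 3 technical repeats and bars their mean, coloured by site, with YEJG lines left of the dashed line. The 2 YEJG lung lines are the lowest lines for Serpinb5, Spint1 and Spint2 and the highest for Cst3, and the YEJG parental line does not share these levels.

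The upstream windows of these 3 genes are shown because the genes moved together across lines, with matches in capitals (GRCm38.p6, chr1:106860925-106861174 on the plus strand for Serpinb5, chr2:119237110-119237359 on the plus strand for Spint1 and chr7:29281978-29282227 on the minus strand for Spint2).
Serpinb5: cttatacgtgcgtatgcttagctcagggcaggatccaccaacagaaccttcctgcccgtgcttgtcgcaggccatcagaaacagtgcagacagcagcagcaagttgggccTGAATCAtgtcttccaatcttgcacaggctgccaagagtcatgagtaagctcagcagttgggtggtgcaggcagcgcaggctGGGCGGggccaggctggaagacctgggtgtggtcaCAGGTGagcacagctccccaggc
Spint1: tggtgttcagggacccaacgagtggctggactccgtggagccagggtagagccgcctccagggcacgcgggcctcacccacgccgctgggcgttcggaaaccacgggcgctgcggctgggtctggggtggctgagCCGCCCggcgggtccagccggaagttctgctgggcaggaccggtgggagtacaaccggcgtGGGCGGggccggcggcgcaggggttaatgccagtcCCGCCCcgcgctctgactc
Spint2: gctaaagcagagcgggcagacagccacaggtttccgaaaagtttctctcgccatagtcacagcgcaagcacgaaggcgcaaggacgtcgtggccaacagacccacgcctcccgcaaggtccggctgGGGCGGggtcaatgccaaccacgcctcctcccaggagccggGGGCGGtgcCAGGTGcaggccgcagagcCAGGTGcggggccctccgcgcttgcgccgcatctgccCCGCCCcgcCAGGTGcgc
Serpinb5 held 1 AP-1 match 140 bases before the start, 1 CACCTG match and 1 GC box. Spint1 held 3 GC boxes and no CACCTG match, and Spint2 held 3 CACCTG matches and 3 GC boxes, the nearest of each lying 9 and 18 bases before the start. A match of letters is a description and was not tested for binding.

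Markers of mammary luminal epithelium moved with these members. All 6 listed markers were lower in YEJG-derived lines, with Epcam at -1.50 (SE 0.19, adjusted p = 7.22e-05), Cdh1 at -1.53 (SE 0.28, adjusted p = 0.000827) and Krt19 at -2.45 (SE 0.38, adjusted p = 0.000286) on the log2 scale in edgeR. The summed luminal markers came to between 39540 and 44257 normalised counts in the YEJG lung lines, 59619 in YEJG-FP and between 83742 and 105168 in the YEJH lung lines. Fibroblast markers moved the other way, since all 3 that were tested (of 6 listed) were higher in YEJG-derived lines. Their sum was 217 to 804 in the YEJG lung lines against 36.5 to 85.3 in the YEJH lung lines, most of it Pdgfra at 594 in YEJG-M1 and 127 in YEJG-M2, while Lum was at 0 in every library. Of the genes tested from the other marker lists, 1 of 2 basal markers was higher (Mylk), 0 of 1 leukocyte marker passed and 1 of 1 lung epithelial marker was lower (Foxj1), while no endothelial or adipocyte marker had enough reads to be tested. The part of these markers in the inhibitor levels was not tested.

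Cst3, the secreted inhibitor of cysteine cathepsins, was the member that was higher in YEJG-derived lines. It was at 2572 and 2601 normalised counts in the YEJG lung lines, against 1624, 1583, 1515, 1436 and 1787 in the YEJH lung lines. The YEJG fat-pad line, at 1555, lay below all 5 YEJH fat-pad lines, which ran from 1640 to 1762. The log2 difference was 0.43 (SE 0.12, adjusted p = 0.0124, edgeR), and it fell to 0.34 (adjusted p = 0.0760, edgeR) without YEJG-M1 and 0.33 (adjusted p = 0.0768, edgeR) without YEJG-M2.

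Timp2 was lower in YEJG-derived lines by a small amount. Its levels were 6238 in YEJG-FP and 5674 and 6071 in the YEJG lung lines, against a range of 6301 to 7725 with a median of 6905 in the 10 YEJH-derived lines. The groups did not overlap, and the log2 difference of -0.22 (SE 0.06, adjusted p = 0.00895, edgeR) lost its call without YEJG-M1, at -0.17 (adjusted p = 0.0614, edgeR). The remaining members did not pass. Slpi differed by -0.14 (SE 0.12, adjusted p = 0.364), Timp1 by 0.16 (SE 0.07, adjusted p = 0.103), Timp3 by 0.31 (SE 0.14, adjusted p = 0.0831) and Serpine2 by 0.60 (SE 0.32, adjusted p = 0.152) in edgeR's test. Calls were gained for Slpi (-0.39) and Serpine2 (1.01) without YEJG-FP, for Timp3 without YEJG-M1 (0.43), YEJH-M1 (0.37) or YEJH-M4 (0.36), and for Timp1 without YEJH-M1 (0.19) or without the third technical repeats (0.20). Slpi also passed in lung lines alone (-0.40, adjusted p = 0.0317, edgeR) and Timp1 in run A alone (0.19, adjusted p = 0.0222, edgeR). With libraries kept apart in limma, Timp1 passed with adjusted p of 0.00780, 0.0119 and 0.00614 and Timp3 with adjusted p of 0.00396, 0.00405 and 0.00205 (plain, with the technical repeat number as block and with run).

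**Figure D3:**
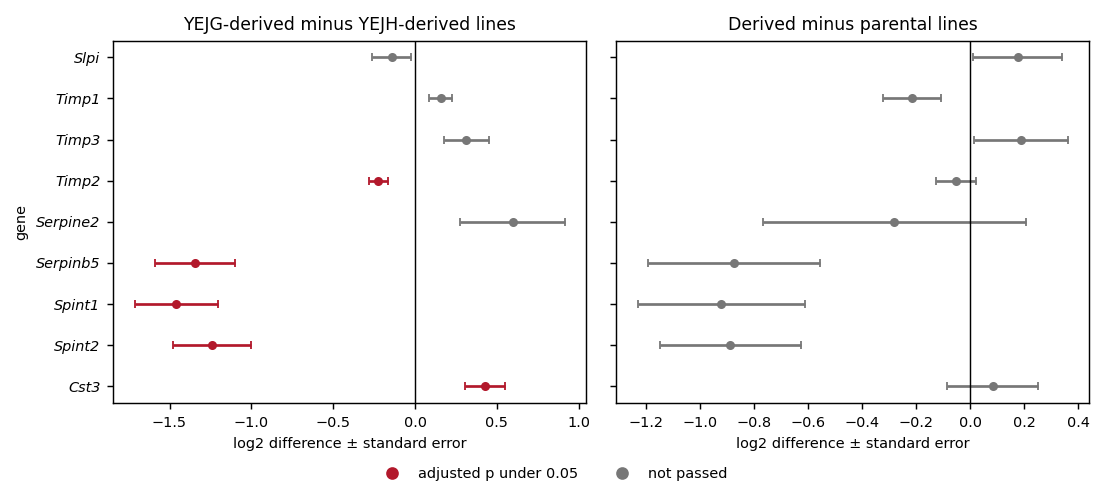
Log2 difference (x axis, ± standard error of edgeR's fit) of each member (y axis) between YEJG-derived and YEJH-derived lines (left, 13 lines) and between derived and parental lines (right, 15 lines). Red marks an adjusted p under 0.05 over all genes tested. Serpinb5, Spint1 and Spint2 lie between -1.46 and -1.24 on the left, and no member is red on the right.

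Derived lines were next compared with the parental lines, weighting fat pad and lung alike so that the contrast used for the choice cancels out. None of the 9 members passed in edgeR's quasi-likelihood test, where 7.74% of 16361 genes did (3.51% higher and 4.23% lower in derived lines). In DESeq2 3 of the 9 passed, where 2070 of the 16361 genes did, against 1267 in edgeR. In edgeR the same 3 were Spint2 at -0.89 (SE 0.26, adjusted p = 0.0532), Spint1 at -0.92 (SE 0.31, adjusted p = 0.0867) and Serpinb5 at -0.88 (SE 0.32, adjusted p = 0.110). The other 6 lay between -0.28 (Serpine2, SE 0.49) and 0.19 (Timp3, SE 0.17). The parental group is 1 line of each origin, and removal of the YEJH parental line brought Timp1, Serpinb5, Spint1 and Spint2 under the threshold whereas removal of YEJG-FP did so for Serpinb5, Spint1 and Spint2, and removal of YEJG-M1 or of the third technical repeats did so for Spint2. Removal of the YEJG parental line instead left Serpinb5 at -0.10, Spint1 at -0.24 and Spint2 at -0.47. That fit has no parent against which to set the YEJG-derived lines. Without the YEJG parental line the difference shrank most for Serpinb5 and least for Spint2. For all 3 genes the highest YEJH-derived line lay below the YEJH parental line. These were at 2800 against 2809 normalised counts for Serpinb5, 1286 against 1383 for Spint1 and 3247 against 4198 for Spint2. For Serpinb5, the YEJG parental line held 3037 normalised counts and its lung lines 578 and 653, against 2809 in the YEJH parental line.

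Serpine2 ran in opposite directions by origin. It stood at 83.3 normalised counts in the YEJG parental line and at 186 to 356 in the lines derived from it, whereas it stood at 402 in the YEJH parental line and at 74.6 to 298 in the lines derived from that one. That difference between origins was not tested. Of the 6 luminal markers 1 was lower in derived lines (Epcam, -0.98, SE 0.27, adjusted p = 0.0398, edgeR), as was 1 of 4 basal markers tested (Krt14, -1.79, SE 0.34, adjusted p = 0.00819, edgeR). Of 4 fibroblast markers tested 1 was higher (Col3a1, adjusted p = 0.0351, edgeR), which was at 0 in both parental lines and reached 83.3 normalised counts in YEJG-M1. The part of these markers in the comparison with parental lines was not tested.

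**Figure D4:**
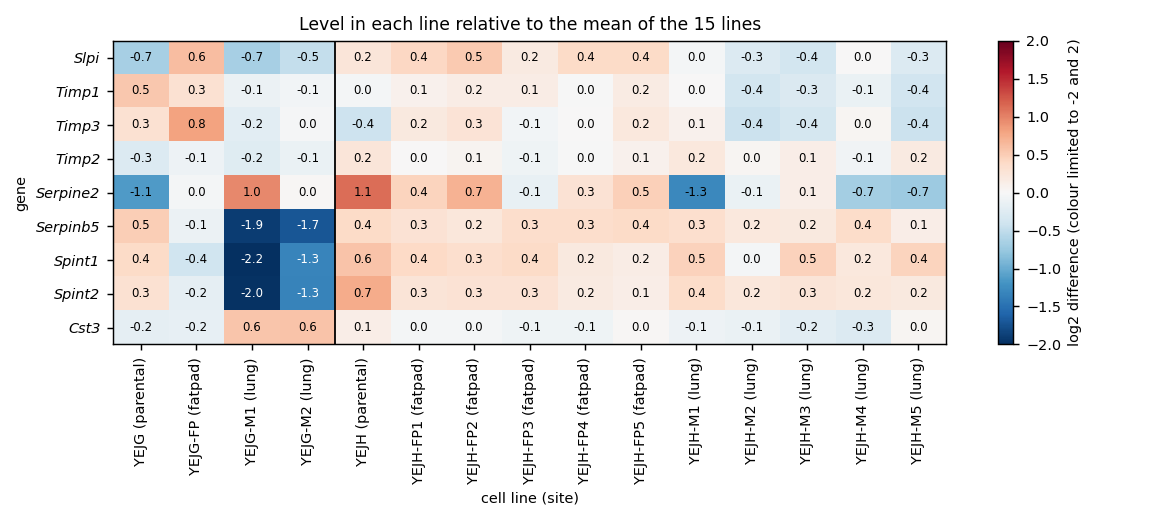
Log2 level of each member (rows) in each line (columns, site in brackets) relative to that member's mean over the 15 lines, with colours limited to -2 and 2. YEJG lines are left of the black line. The YEJG lung lines reach -1.90 for Serpinb5, -2.24 for Spint1 and -1.98 for Spint2, and Serpine2 reaches 1.12 in the YEJH parental line and -1.29 in YEJH-M1.

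Lines of the same origin and site were compared to see how far the inhibitors vary without a change of either, with libraries kept apart, so that p measures the spread of technical repeats. Among the 5 YEJH fat-pad lines 2 of 9 members passed edgeR's test, where 1.19% of 13429 genes did. They were Serpine2, whose line values ran from 167 (FP3) to 298 (FP2) with a fitted log2 range of 0.84 (adjusted p = 0.0438), and Timp3, from 6429 (FP3) to 8054 (FP2) with a range of 0.33 (adjusted p = 0.0364). Neither call held without the library run as covariate, without the second technical repeats or without the third, and without the first Timp3 was lost and Spint1 gained. Slpi was gained without a filter on low counts.

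Among the 5 YEJH lung lines 4 of 9 members passed, where 20.6% of 13599 genes did. Serpine2 varied most, from 74.6 in M1 to 202 in M3, with 168, 116 and 112 in M2, M4 and M5 (range 1.44, adjusted p = 0.00108, edgeR). Timp3 ranged over 0.50 (adjusted p = 0.000240), Spint1 over 0.48 (adjusted p = 0.00133) and Timp1 over 0.37 (adjusted p = 0.00328) in edgeR. For Timp1 and Timp3 the same 2 lines, M1 and M4, were the highest and M2, M3 and M5 the lowest. Without YEJH-M3 repeat 2, 7 members passed, Timp2, Serpinb5 and Cst3 being added, while calls over all genes rose from 2808 to 3693. Serpinb5 was also added without run, with the technical repeat number as block, with DESeq2 and without the first technical repeats, and Slpi and Timp2 without a filter. Timp1 was lost without the first technical repeats, Serpine2 without the second, and Timp1 and Spint1 without the third.

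Between the 2 YEJG lung lines 3 of 9 members passed, where 10.2% of 13147 genes did. YEJG-M2 held less Serpine2 than YEJG-M1 (186 against 356 normalised counts, log2 difference -0.92, SE 0.11, adjusted p = 0.00151, edgeR). It held more Spint1 (372 against 196.5, log2 difference 0.94, SE 0.12, adjusted p = 0.00162, edgeR) and more Spint2 (997 against 632, log2 difference 0.68, SE 0.11, adjusted p = 0.00529, edgeR). Of the luminal markers, Epcam and Cdh1 were also higher by value in YEJG-M2, at 2788 against 1793 and 1460 against 862 normalised counts, as were Cldn3 and Krt19. Krt8 and Krt18 went the other way, at 19127 against 24471 and 14591 against 16209. The sum over the luminal list was lower in YEJG-M2, as was Pdgfra. The part of these markers in the Spint1 and Spint2 values was not tested.

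Across the 15 lines the members fell into few patterns, given as correlations of log2 levels and as description, since lines of 1 origin share their parent. Spint1 and Spint2 had r = 0.98, Serpinb5 and Spint2 r = 0.97, and Serpinb5 and Spint1 r = 0.96 (n = 15 lines). Without the 2 YEJG lung lines these values were 0.80, 0.63 and 0.63 (n = 13 lines). Cst3 ran against Serpinb5, with r = -0.89, but with r = 0.10 without the YEJG lung lines. Timp1 and Timp3 had r = 0.81 with and without them, whereas Slpi and Timp1, the genes on which the list was chosen, had r = 0.29. Among 10531 genes, those most like Slpi were Ttyh2 (r = 0.84), Arhgef40 (r = 0.84) and Cebpg (r = 0.83), and those most like Timp1 were Rhobtb2 (r = 0.83), Timp3 (r = 0.81) and Cmtm7 (r = 0.80).

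Per kilobase of the canonical transcript, mean levels over the 15 lines placed Timp1 first at 3253 normalised counts per kb, then Slpi at 2286, Cst3 at 1916, Timp2 at 1799, Spint2 at 1763, Timp3 at 1457, Serpinb5 at 904, Spint1 at 423 and Serpine2 at 93.0. With all annotated exons merged, Slpi came first at 1697 and Timp1 followed at 1557, and Serpine2 stayed last at 16.7. Annotated genes overlap some members and the library kit does not record strand, so their reads cannot be told apart. Counts of Matn4, which shares 280 exonic bases with Slpi, came to 1.78% of the Slpi reads, those of Cep295nl to 0.922% of the Timp2 reads, those of Syn3 to 0.121% of the Timp3 reads, and those of Syn1 to 0.015% of the Timp1 reads. The remaining overlaps with non-coding genes are given no value here.

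Proteases of the classes that these families act on were read from 3 lists, beside a list of other inhibitors. The lists also hold genes that are not targets of the members. Hgf, Met, F3 and Plaur are partners rather than proteases, and Ctsa and Ctsd are lysosomal proteases of other classes. Inhibition of the single listed proteases by the members was not tested. Of 15 serine proteases and partners tested, 10 were lower and 1 higher in YEJG-derived lines, with a median log2 difference of -1.33 against 0.01 over all genes. Tmprss4, a membrane serine protease, was lower by -1.77 (SE 0.31, adjusted p = 0.000600, edgeR), Tmprss11e by -1.73 (SE 0.44, adjusted p = 0.00663, edgeR), and Plat, the tissue plasminogen activator, by -1.49 (SE 0.27, adjusted p = 0.000783, edgeR), while the mitochondrial protease Htra2 was higher by 0.37 (SE 0.08, adjusted p = 0.00170, edgeR). Matriptase (St14), the protease that Spint1 and Spint2 inhibit, was added after its values were seen. It was at 873 and 1441 normalised counts in YEJG-M1 and YEJG-M2, 2772 in YEJG-FP and 3902 to 4618 in the YEJH-derived lines, so inhibitors and target were lowest in the same lines. Elane and Ctsg, the genes of neutrophil elastase and cathepsin G, were at 0 in every line. Mmp2 reached at most 4.48 normalised counts, in YEJG-M2.

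Of 20 metalloproteinases tested, 5 were higher and 8 lower in YEJG-derived lines (median -0.41). Adam12 differed by -1.57, Mmp10 by -1.08 and Adam8 by -0.96, and Mmp11, Adam9 and Adam15 by 0.70, 0.47 and 0.40, all with adjusted p under the threshold in edgeR. Of 10 lysosomal proteases 1 was higher (Lgmn, legumain, 0.47) and 3 were lower (Ctsh -1.19, Ctsl -0.57 and Ctsd -0.45), with a median of -0.04. Of 9 other inhibitors tested 2 were higher and 4 lower (median -0.17), among them Serpinb9, an inhibitor of granzyme B, at 1.80, Wfdc2, which like Slpi carries WAP domains, at -1.19, Serpinb8 at -0.93 and Cst6 at -0.58. Between derived and parental lines few of these genes passed: 1 higher and 1 lower of 22 metalloproteinases, 2 higher and 1 lower of 16 serine proteases and partners, 0 higher and 1 lower of 10 lysosomal proteases, and 0 of 14 other inhibitors. Adamts5, which cleaves aggrecan, was higher in derived lines by 3.28 (SE 0.46, adjusted p = 0.00154, edgeR), at 6.35 and 17.1 normalised counts in the YEJG and YEJH parental lines and 46.4 to 162 in the derived lines. Plau, the urokinase-type plasminogen activator, was lower by -0.91 (SE 0.19, adjusted p = 0.0131, edgeR), Ctsd by -0.53 (SE 0.10, adjusted p = 0.00944, edgeR), and Met was higher by 0.36 (SE 0.09, adjusted p = 0.0247, edgeR).

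**Figure D5:**
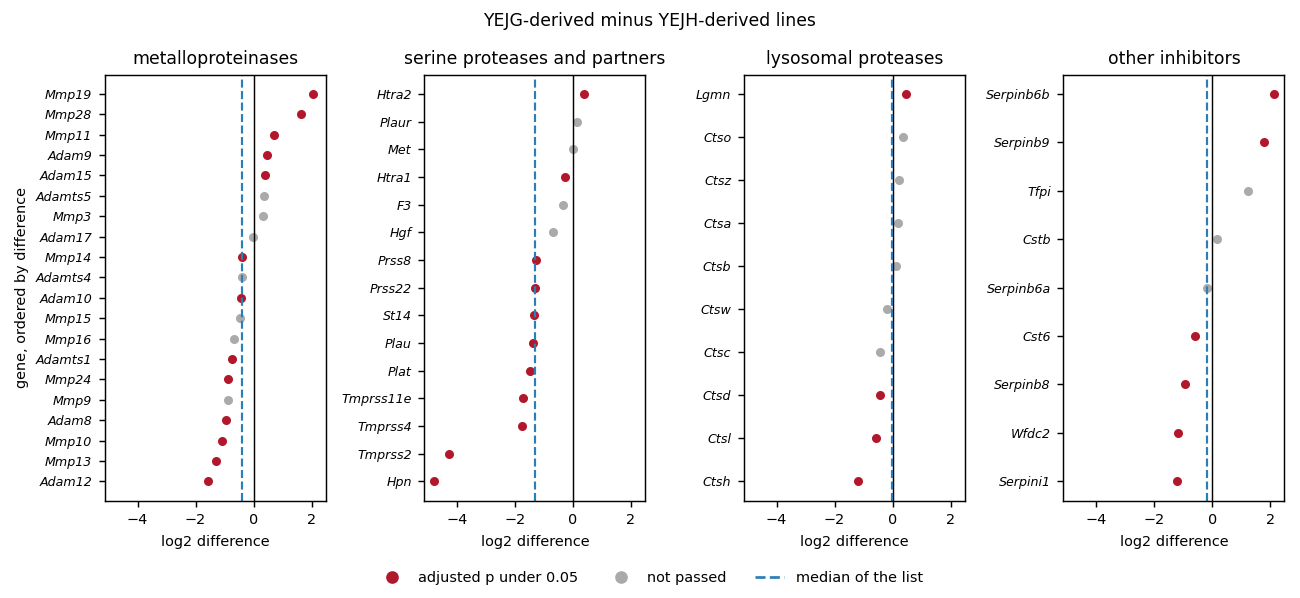
Log2 difference (x axis) between YEJG-derived and YEJH-derived lines of each tested gene (y axis, ordered by difference) in 4 lists. Red points have an adjusted p under 0.05 and the dashed line is the median of the list. The median of the serine proteases and partners is -1.33 and those of the other lists lie between -0.41 and -0.04.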

How the data were processed

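The 45 libraries were prepared from poly(A) RNA with a TruSeq v2 kit (Illumina), which does not record strand, and were sequenced on a NextSeq500. Per gene and library the authors deposited unnormalised read counts, with further rows for reads outside genes (31.6% to 43.3% of reads per library), which were left out. FastQC, HISAT2, SAMtools 1.2 and HTSeq are named in the submitters' processing notes together with the human build GRCh38, although the identifiers are those of mouse genes. The annotation release is not given in the sources used here. Of the identifiers, 50764 of 54838 (92.6%) were named from the GRCm39 annotation, which also gave transcript lengths and overlaps. Promoter windows came from RefSeq (GRCm38.p6).

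Libraries were placed by their titles. For 1 library of YEJG-M1 title and library name point to different lines, and its omission was among the alternatives. Counts were summed over the technical repeats of a line and tested with edgeR 4.0.16 in R 4.3.3 (quasi-likelihood test, TMM factors, filterByExpr, Benjamini-Hochberg adjustment over all genes tested, threshold 0.05), with site as covariate for origin and origin as covariate for derived against parental lines. Lung against fat-pad lines had no covariate. Lines of 1 group were compared on single libraries with library run as covariate. Standard errors were taken as the absolute log2 difference over the root of F. Alternatives used DESeq2 1.42.0, limma 3.58.1, other scaling, filters and covariates, and omission of runs, lines or repeats. Correlations used log2 of normalised counts plus 1. The scripts were tested on simulated data. Figures used matplotlib 3.10.9 (Python 3.11.15).

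The members and gene lists were chosen with earlier results of these data known. From each list of proteases or inhibitors, up to 3 higher and 3 lower genes with the largest differences past the threshold and a mean of at least 50 normalised counts were named, with the 3 genes most correlated with Slpi and with Timp1. Precision is set by the number of lines rather than by depth.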

Additional observations from a re-analysis of the deposited data

Results flagged for a closer look

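Among the 6 fat-pad lines, YEJG-FP stood far from the others for 3 members. Timp3 was at 11685 normalised counts there, with the nearest line at 8054. Serpinb5 was at 1973, with the nearest line at 2526, and Spint1 was at 705.4, with the nearest line at 1036. YEJG-FP is the only fat-pad line of its origin, so its origin and the line itself cannot be told apart. Of 36 groups examined 3 stood out in this way, where chance would give about 1.8 if the groups were independent. Some groups share lines and some members move together, so this count is no test. For Spint2, YEJG-FP was at 2201 normalised counts and fell just short of the limit used.

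In 3 members the derived lines lay on opposite sides of their parental line in the 2 origins, each YEJG-derived line above its parent and each YEJH-derived line below its own. The difference between origins in the log2 change was 2.70 for Serpine2 (1.48 in YEJG and -1.22 in YEJH), 0.737 for Cst3 (0.50 and -0.24) and 0.303 for Timp2 (0.12 and -0.18). These differences were not tested, and each rests on 1 parental line per origin.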

How the results depend on the processing

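The count of members that differed by origin (5) stayed between 4 and 7 over 28 alternatives, and Serpinb5, Spint1 and Spint2 passed in each of them. The count of 0 for derived against parental lines became 3 with DESeq2, 4 with libraries kept apart in limma, also with the technical repeat number as replicate block or the library run as covariate, 1 in run A only, 3 in fat-pad lines alone and 1 in YEJH lines alone, and ran from 0 to 4 when lines or repeats were left out in turn. The count among YEJH fat-pad lines (2) became 0 without the run covariate and ran from 0 to 2 without single repeats. That among YEJH lung lines (4) became 7 without YEJH-M3 repeat 2, an alternative chosen after seeing the data, and ran from 2 to 4 without single repeats. Between the YEJG lung lines it stayed at 3. The site difference of Slpi moved to -1.18 in YEJG lines alone, and otherwise those of Slpi and Timp1 stayed within the spread between lines. The fits of fat-pad or lung lines alone against the parental lines bring back the contrast on which the members were chosen, so their members' values are no independent test. The cause of these changes was not tested.

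Over all genes, the 1267 calls against parental lines became 2573, 2630 and 2555 in the limma fits (plain, with the replicate block and with run), 2070 with DESeq2, 726 in run B only, 1948 in fat-pad lines alone, 163 in lung lines alone and 615 in YEJH lines alone, and ran from 162 to 2266 without single lines or repeats. The 160 calls among YEJH fat-pad lines became 596 without a filter, 248 with DESeq2 and 1 to 175 without single repeats. The 2808 among YEJH lung lines ran from 782 to 1636 and the 1340 between YEJG lung lines from 593 to 1626 without single repeats, the latter being 2024 without a filter.

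Directions did not turn in the comparison by origin. Against the parental lines no member had passed, and between the YEJG lung lines only Cst3 turned, which had not passed. By site, which was not tested, some members turned within a single origin, as given above. Against the parental lines, Serpine2 (-0.28) turned to 0.008, 0.006 and 0.010 in the same limma fits, Timp1 to 0.003 and Cst3 to -0.11 in fat-pad lines alone, Slpi to -0.21 and Timp3 to -0.10 in lung lines alone, and Slpi to -0.13 and Cst3 to -0.22 in YEJH lines alone. Without single lines or repeats the log2 differences ran from -0.124 to 0.612 for Slpi, -0.451 to 0.002 for Timp1, -0.167 to 0.101 for Timp2, -0.027 to 0.386 for Timp3, -1.136 to 1.693 for Serpine2, -0.21 to 0.508 for Cst3, -1.556 to -0.101 for Serpinb5, -1.545 to -0.242 for Spint1 and -1.303 to -0.474 for Spint2, and the changes of sign came from omission of a parental line. Between the YEJG lung lines Cst3 (-0.004) turned to 0.014 without run, 0.001 without a filter and 0.016 with the replicate block, and ran from -0.064 to 0.035 without single repeats. Numbers of technical repeats did not pair libraries, with a mean r of 0 between lines for equal numbers and -0.003 for other numbers, and equally numbered YEJH fat-pad and lung lines gave r of -0.12, -0.19, 0.14, -0.21 and -0.02. With the replicate block 7 members differed by origin, and the count was 2 in YEJH fat-pad lines, 5 in YEJH lung lines and 3 in YEJG lung lines. Over all genes the same fits called 6299, 215, 3042 and 1326.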
